A study of Homo sapiens with 6 samples.

Results

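The results below concern the peaks of chromosome 14 in RNA recovered with an antibody to RBM8A, and above all the dense window at its distal end, in band 14q32.33. Members were all peaks listed on chromosome 14, 276 of the 5437 peaks of 3 lists. Of these, 41 had their summit (the position of highest read pileup in a peak) between 105000001 and 106000000 and formed the 14q32.33 window of 1 Mb. The other 235 peaks formed the rest of the chromosome. The window was chosen with its peak counts known, so its counts and its spacing are a description.

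The cells were AGS, an established line from a human gastric adenocarcinoma, of wild type genotype and without treatment, and the assay was RNA immunoprecipitation followed by sequencing (RIP-seq). The 6 samples were 3 immunoprecipitates with the RBM8A antibody and 3 inputs, all of the same cells, and none was precipitated with a control antibody. Each immunoprecipitate had a peak list of its own, whereas the inputs were not analysed here. Whether replicates were separate cultures is not given in the labels, so their spread may be technical. Fragments are not tied to single molecules, RNA bound by RBM8A and RNA held by the beads cannot be told apart, and a peak does not separate an abundant RNA from a well-recovered one.

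RBM8A, also known as Y14, forms with MAGOH, EIF4A3 and CASC3 the core of the exon junction complex, which splicing leaves on messenger RNA upstream of exon junctions. The complex travels with the RNA to the cytoplasm, where it influences localisation, translation and nonsense-mediated decay, and it is removed by the first translating ribosome. Of 16 core and peripheral factors of the complex and of nonsense-mediated decay that were looked up, 2 are genes of chromosome 14: ACIN1 and PNN, which encode acinus and pinin, peripheral splicing factors of the complex. Positions are given in hg19, from 1 and without strand. The gene table at hand is of GRCh38.p14, so its coordinates were not used, no peak was placed in a gene, exon or intron, and no sequence under a peak was read.

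By that table's order alone, the last 22 protein-coding genes at the distal end of the chromosome run from INF2, a formin that shapes actin filaments, to TMEM121. They include AKT1, the kinase at the centre of growth factor signalling, JAG2, a Notch ligand, and BRF1, a subunit of the RNA polymerase III initiation factor TFIIIB. CEP170B, a centrosomal protein of the CEP170 family, AHNAK2, a very large scaffold protein, and PACS2, a sorting protein, are also among them. Near the end lie MTA1, a subunit of the NuRD chromatin remodelling complex, and the neighbours CRIP2 and CRIP1, small LIM domain proteins. The immunoglobulin heavy chain locus occupies the far end of the band. These names are background on the band, and which of them the peaks belong to was not determined.

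Chromosome 14 held 83, 95 and 98 peaks in replicates 1, 2 and 3, or 5.61%, 4.41% and 5.44% of each list. At 0.773, 0.885 and 0.913 peaks per Mb it ranked 6, 7 and 5 of 23 chromosomes by density, chromosome Y being left out. The 14q32.33 window held 14, 14 and 13 of these peaks, a mean of 13.7 ± 0.577 (SD, n = 3), against 69, 81 and 85 on the rest of the chromosome. It thus carried 16.9%, 14.7% and 13.3% of the chromosome's peaks. The density was 13.7 ± 0.577 peaks per Mb in the window and 0.737 ± 0.0783 on the rest (SD, n = 3), a ratio of 21.6, 18.4 and 16.3. In every replicate it was the fullest of the chromosome's windows of 1 Mb, and the next fullest held 10, 8 and 11 peaks. When the window was moved by 250 kb towards the start of the chromosome, its share of the chromosome's peaks fell to 8.45%, so the count depends on where the window begins.

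**Figure D1:**
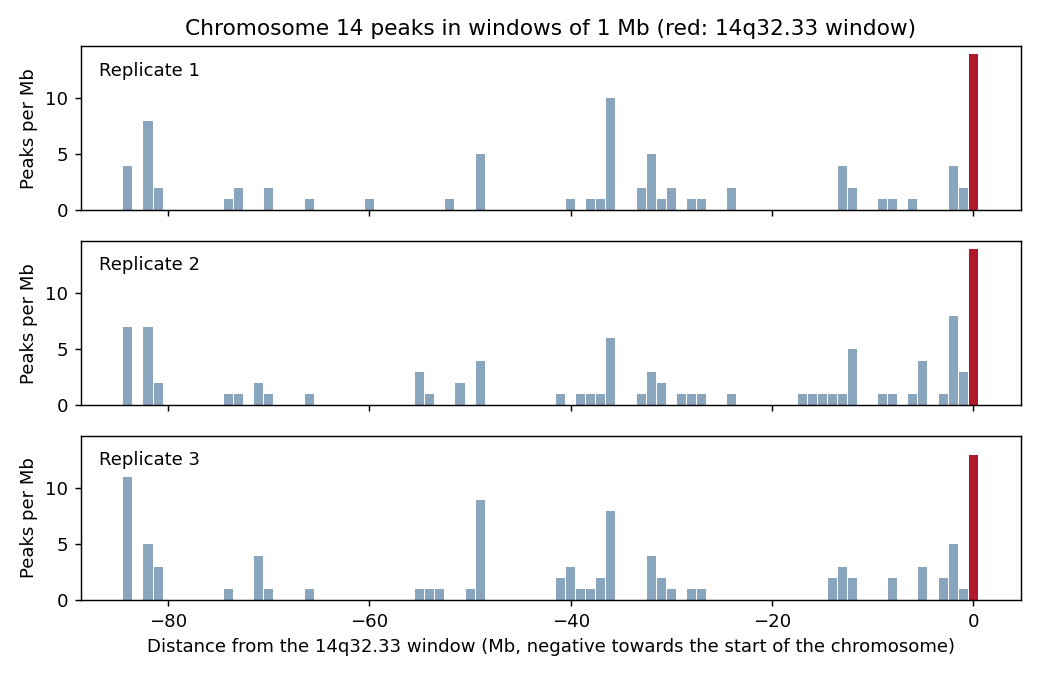
Peaks per 1 Mb window of chromosome 14 in each replicate, by distance in Mb from the 14q32.33 window (red bar at 0). The red bar reaches 14, 14 and 13 peaks and is the highest in each replicate, while the adjoining window before it holds 2, 3 and 1 peaks and the one after it is empty.

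Few peaks lay near the window. The adjoining window of 1 Mb before it held 2, 3 and 1 peaks, and the last summit there lay at 104135864, 104143940 and 104128663. From it to the first summit of the 14q32.33 window, 1034, 1026 and 1040 kb had no summit. After the last summit of the window, at 105954170, 105954520 and 105953797, no further peak was listed, and 0 peaks lay in the 1.35 Mb between the end of the window and the end of the chromosome. Within the window, the 41 summits fell into 5 groups when summits more than 50 kb apart were separated. A separation at 20 kb also gave 5, while one at 100 kb gave 2.

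The first group ran from 105168073 to 105181672 and held 3, 3 and 2 peaks in replicates 1, 2 and 3. The second, from 105236719 to 105247010, held 4, 3 and 3 peaks in 10.3 kb and was the most compact of the 3 larger groups. Between 105334874 and 105353075 the third group held 2, 1 and 2 peaks. A stretch of 484 kb without a summit in any list followed. The fourth group was a single peak of replicate 2, from 105834841 to 105841782, with a fold of 5.06. The fifth group, from 105912047 to 105954528, was the fullest, with 5, 6 and 6 peaks. The 14q32.33 window is therefore several separate groups and not 1 continuous block.

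Groups of similar size occurred elsewhere on the chromosome under the same 50 kb separation, which gave 76 groups in all. The fifth group, had 17 peaks over the 3 lists. Only 2 groups had more, with 18 peaks each, from 56079168 to 56139184 and from 69346783 to 69440929. Between neighbouring summits within a list, the median distance was 10.8, 5.14 and 5.80 kb in the window. On the rest of the chromosome it was 184, 165 and 14.1 kb, so the rest of replicate 3 was spaced much more like the window than that of replicates 1 and 2. Distances under 10 kb made up 6 of 13, 8 of 13 and 8 of 12 in the window, and 20 of 68, 19 of 80 and 37 of 84 on the rest.

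**Figure D2:**
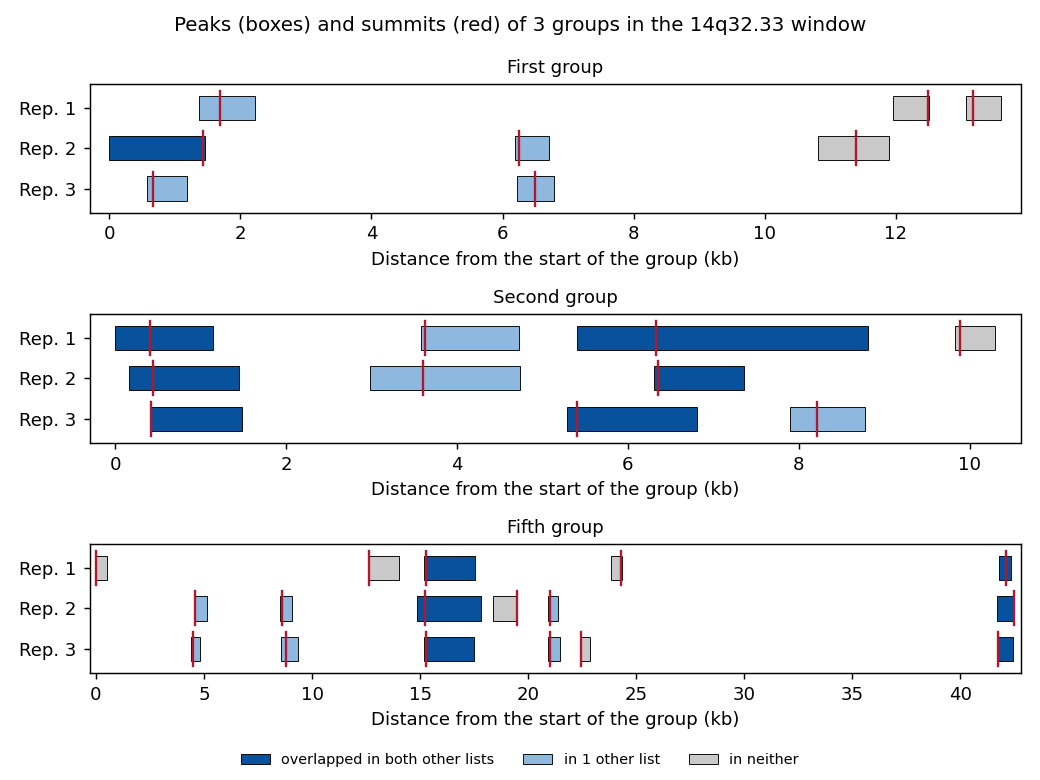
Peaks (boxes) and summits (red lines) of the first, the second and the fifth group of the 14q32.33 window, by replicate, with distance from the start of each group in kb. Dark blue marks peaks overlapped in both other lists, light blue in 1 and grey in neither; in the fifth group replicates 2 and 3 have 3 positions in common at which replicate 1 has no peak.

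Peaks of the window were narrow. Their median width was 706.5, 1065.5 and 693 bp in replicates 1, 2 and 3, against 1861, 1578 and 1992 bp on the rest of the chromosome. Over the whole lists it was 1869.5, 1557 and 1810 bp. The median was lower in the window in 3 of 3 replicates, with a mean difference of -989 ± 419 bp (SD, n = 3). The widest peaks of the window measured 7759, 6942 and 2320 bp. None of its 14, 14 and 13 peaks reached 10 kb. On the rest, 6 of 69, 9 of 81 and 4 of 85 peaks did, up to 48281, 68976 and 48319 bp. Over the whole lists the shares were 11.2%, 8.12% and 9.05%, so a count of 0 among so few peaks says little. Together the window's peaks covered 21613, 21072 and 12180 bp, compared with 287707, 415238 and 305311 bp on the rest.

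Fold enrichment is the authors' value, the pileup at the summit over the level their caller expected there, with 1 added to each. Its median was 4.36, 5.30 and 4.45 in the window and 3.97, 4.29 and 3.97 on the rest, higher in the window in 3 of 3 replicates by a mean of 0.627 ± 0.336 (SD, n = 3). A fold of at least 5 was listed for 4 of 14, 9 of 14 and 5 of 13 peaks of the window (28.6%, 64.3% and 38.5%) and for 7 of 69, 29 of 81 and 19 of 85 of the rest (10.1%, 35.8% and 22.4%). Over the whole lists the shares were 16.2%, 26.7% and 20.9%. The highest folds of the window were 7.44, 8.21 and 7.94, below the 11.3, 11.5 and 8.67 reached on the rest. With the window moved by 250 kb, the fold difference was 0.369 on average and -0.333 in replicate 3, so its direction in every replicate depends on where the window begins.

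Summit pileup is the number of fragments stacked at the summit, worked back from the fold and p-value of each peak. Its median was 6.5, 8.5 and 8 in the window and 6 on the rest in each replicate. The mean difference was 1.67 ± 1.04 fragments (SD, n = 3). With the window moved by 250 kb it was 0.667, and 0 in replicates 1 and 3. At least 10 fragments were found at 5 of 14, 6 of 14 and 4 of 13 summits of the window, or 35.7%, 42.9% and 30.8%. On the rest the shares were 21.7%, 23.5% and 25.9%, and over the whole lists 23.6%, 25.3% and 24.3%, so the share of replicate 3 was near the background. The expected level stood at the lowest value of its list, within 0.5%, for 7, 1 and 5 of the window's peaks (50.0%, 7.14% and 38.5%). On the rest it did so for 31, 38 and 30 peaks (44.9%, 46.9% and 35.3%). Over the whole lists the shares were 50.5%, 42.6% and 40.1%, so the window was near the background in replicates 1 and 3 and below it in replicate 2.

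Widths, folds, pileups and the recurrence described below were compared by an exact sign-flip permutation test over the 3 replicates, two-sided, which cannot give a p below 0.25. The exact p was 0.25 for width, fold and pileup and 0.5 for recurrence, or 0.333 and 0.5 after Benjamini-Hochberg adjustment over the 4 comparisons. None could pass the threshold in this design. With only peaks of a −log10 q of at least 5, of which the window held 3, 4 and 3, the pileup difference turned to -1.33 fragments, and the fold was lower in the window in replicates 1 and 2.

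**Figure D3:**
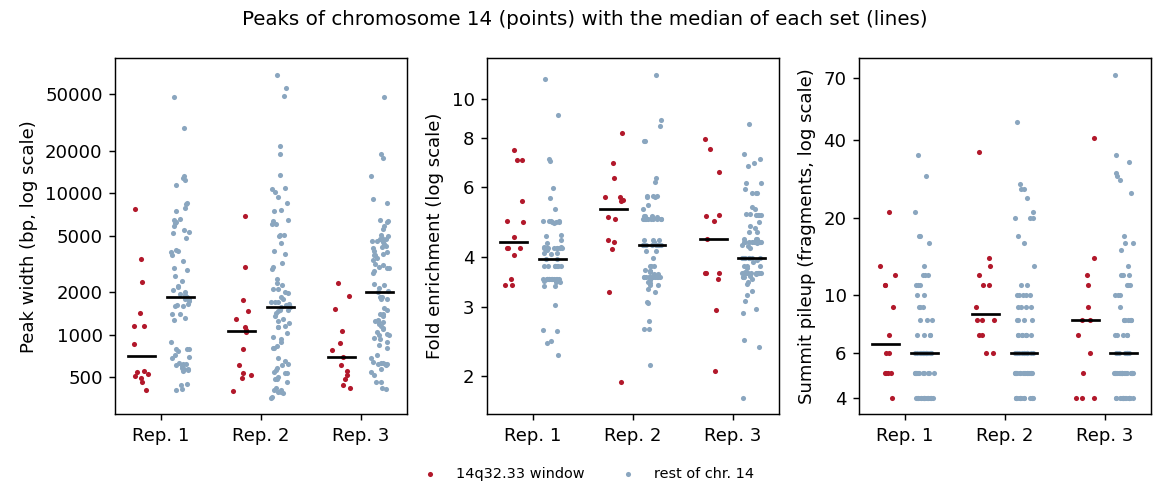
Width in bp, fold enrichment and summit pileup in fragments (log axes) of each peak of chromosome 14, by replicate, for the 14q32.33 window (red) and the rest (blue), with black lines at the medians. In each replicate the red median lies lower for width and higher for fold and for pileup, and the clouds of points overlap.

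The share of recurrent peaks in the window lay near that of the whole lists in replicates 1 and 3 and above it in replicate 2. Peaks overlapped by at least 1 bp in both other lists numbered 4 of 14, 5 of 14 and 4 of 13 in the window, or 28.6%, 35.7% and 30.8%. On the rest of the chromosome they numbered 22 of 69, 21 of 81 and 21 of 85, or 31.9%, 25.9% and 24.7%. Over the whole lists, 32.4%, 22.2% and 26.5% of peaks were overlapped in both others. The 95% Wilson intervals of the window's shares, which treat peaks as independent, were wide, from 11.7% to 54.6% in replicate 1, 16.3% to 61.2% in replicate 2 and 12.7% to 57.6% in replicate 3. Each interval included the share of its whole list. The window's peaks were also narrower, and whether width affects this share was not tested. The difference from the rest was -3.31, 9.79 and 6.06 percentage points, with a mean of 4.18 ± 6.75 (SD, n = 3). Its sign depended on the rule. With at least 50% overlap of both peaks it was 2.59, 6.61 and 6.61 points, and with summits within 100 bp 4.14, 4.41 and 7.15. With only peaks of a −log10 q of at least 5 it was -20, -10 and -6.67.

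Within the window, peaks of replicates 2 and 3 met each other more often than those of replicate 1. Of the 14 peaks of replicate 1, 8 (57.1%) were overlapped in neither other list, as were 3 of 14 (21.4%) in replicate 2 and 2 of 13 (15.4%) in replicate 3. Over the whole lists these shares were 38.5%, 50.8% and 46.1%, so replicate 1 lay above its background and replicates 2 and 3 below theirs. On the rest of the chromosome the counts were alike, at 27 of 69, 32 of 81 and 33 of 85. In the window, 10 of 14 peaks of replicate 2 (71.4%) were overlapped in replicate 3, and 10 of 13 peaks of replicate 3 (76.9%) in replicate 2. The whole lists gave 37.2% and 44.3%. The 14 peaks of replicate 1 met replicate 2 in 6 cases (42.9%) and replicate 3 in 4 (28.6%), against 49.9% and 44.0% of its whole list. In the other direction, 6 of 14 peaks of replicate 2 (42.9%) and 5 of 13 of replicate 3 (38.5%) met replicate 1, against 34.2% and 36.1% of their lists. Without replicate 1, the share of peaks overlapped in the 1 list left was 24.3 percentage points higher in the window than on the rest. Without replicate 2 or 3 the difference was -3.38 and -2.88 points. These pairings come from a handful of peaks, and the difference between pairs was not tested.

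**Figure D4:**
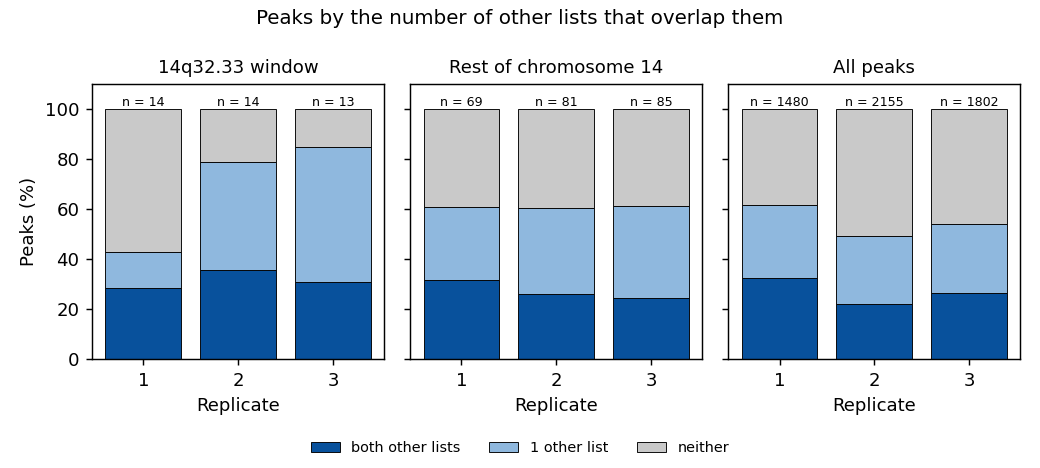
Percentage of peaks overlapped in both other lists, in 1 and in neither, by replicate, in the 14q32.33 window, on the rest of chromosome 14 and in the whole lists, with the number of peaks above each bar. The dark share of the window lies near that of the whole lists in replicates 1 and 3 and above it in replicate 2. The grey share of the window is 57.1% in replicate 1 and 21.4% and 15.4% in replicates 2 and 3.

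Deep summits recurred more often than shallow ones, in the window as on the rest. None of the 9 peaks of the window with a pileup of 4 or 5 was overlapped in both other lists, compared with 10 of 102 on the rest and 238 of 2241 in the whole lists. Replicates 1, 2 and 3 gave 5, 0 and 4 of these 9 peaks. With 6 to 9 fragments it was 4 of 17 and 15 of 77, and 414 of 1853 in the whole lists. With 10 or more it was 9 of 15 in the window, 39 of 56 on the rest and 776 of 1332 in the whole lists. By replicate, the window's counts were 3 of 5, 3 of 6 and 3 of 4. The totals pool the 3 lists, so a position found in all of them can be counted once per list.

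When peaks of the 3 lists that overlapped were joined, the window gave 24 regions, of which 5 (20.8%) held a peak of each list, 6 were found in 2 lists and 13 in 1. On the rest, 19 of 142 regions (13.4%) held a peak of each list, 31 were in 2 and 92 in 1. Over the whole series, 12.1% of regions did so. The 5 regions were spread over the first, the second and the fifth group, with 1, 2 and 2 of them. Among the 6 regions of 2 lists, 5 were shared by replicates 2 and 3 and 1 by replicates 1 and 2.

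The first of the 5 regions, from 105168073 to 105170303, had folds of 4.22, 5.69 and 3.64 in replicates 1, 2 and 3, with summit pileups of 5, 8 and 4. It was held together by the peak of replicate 2, as those of replicates 1 and 3 did not touch, and its summits lay up to 1025 bp apart. It has no base covered in all 3 lists, unlike the other 4 regions.

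At the start of the second group, the region from 105236719 to 105238205 had summits at 105237125, 105237166 and 105237139, within 41 bp of each other. Its pileups were alike, at 12, 13 and 14 fragments, with exact 95% Poisson intervals of 6.20 to 20.96, 6.92 to 22.2 and 7.65 to 23.5, which cover counting error only. Its folds were 7.04, 4.20 and 2.95, against expected levels of 0.846, 2.33 and 4.09 fragments. The same position thus ranked at percentile 96.9 of its list by fold in replicate 1 and at 51.9 and 5.72 in replicates 2 and 3.

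Further along the second group, the region from 105242008 to 105245531 had folds of 7.03, 3.28 and 7.48 and pileups of 9, 8 and 12. Replicate 1 had 1 peak of 3413 bp there, replicate 2 had 1 of 1051 bp and replicate 3 had 2. Summits of replicates 1 and 2, at 105243051 and 105243074, were close, while the best summit of replicate 3 lay at 105242124. Between these regions, a position from 105239696 to 105241457 was listed in replicates 1 and 2 only, with folds of 3.39 and 6.93 and pileups of 11 and 14.

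Within the fifth group, the region from 105926879 to 105929884 was the steadiest of the 5 by fold. Its folds were 4.50, 4.37 and 5.07, a mean of 4.64 ± 0.373 (SD, n = 3). Its summits, at 105927299, 105927271 and 105927310, lay within 39 bp, and 2320 bp were covered in all 3 lists. Pileups were less steady, at 13, 11 and 7 over expected levels of 2.11, 1.75 and 0.579 fragments. Replicates 2 and 3 had 3 further positions in common in this group. From 105916429 to 105917180 the folds were 6.32 and 6.55, from 105920563 to 105921399 they were 5.54 and 7.94, and from 105932956 to 105933497 they were 4.42 and 4.95. Replicate 1 listed no peak at these 3 positions and had single peaks of its own from 105912047, 105924643 and 105935873, with folds of 4.22, 4.92 and 3.39.

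The last region, from 105953738 to 105954528, was the deepest of the window and the least alike between replicates. Its pileups were 21, 36 and 41 fragments, with intervals of 13 to 32.1, 25.2 to 49.8 and 29.4 to 55.6. Its folds were 7.44, 1.94 and 2.06, the highest of replicate 1 and the lowest of replicates 2 and 3 within the window. The expected level was 1.96 fragments in replicate 1 and 18.1 and 19.4 in replicates 2 and 3, so that the replicates with more fragments had the lower folds. Which sample gave the expected level is stated nowhere in the labels or the lists, and its part in this difference was not tested.

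Of the 19 regions found in all lists on the rest of the chromosome, 10 are named, chosen by the percentile that the fold of their best peak took in each list, averaged over the lists. The region from 39644476 to 39645297 came first, with folds of 6.999, 7.86 and 5.94 (6.93 ± 0.963, SD, n = 3), pileups of 9, 10 and 11, and summits within 41 bp. It stood at percentiles 95.6, 97.2 and 91.3 of the 3 lists, and each other named region was below percentile 91.3 in at least 1 list. It was short, with peaks of 791, 410 and 802 bp.

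A series of regions lay between 23528320 and 23540366. Of these, that from 23532208 to 23536128 ranked second, with folds of 5.29, 8.89 and 4.74 and starts within 5 bp, and that from 23538715 to 23540366 had folds of 5.96, 4.29 and 3.97 and summits within 73 bp. Farther along, the region from 73576094 to 73578420 had folds of 7.08, 6.19 and 3.22 with pileups of 13, 16 and 17, so that the replicate of lowest fold had the most fragments. The region from 97022857 to 97027048 had folds of 4.56, 3.32 and 6.17, and that from 21702501 to 21708834 had 4.09, 4.14 and 6.79.

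In the latter, all 3 lists drew nearly the same outline. Its best peaks were 6229, 6334 and 6311 bp wide, with starts within 37 bp, ends within 68 bp and summits within 38 bp. It was the only one of the 24 regions of the chromosome found in all lists whose starts and ends both agreed within 100 bp.

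The group from 56079168 to 56139184 held the deepest of the named regions of the rest, from 56101292 to 56103783, with pileups of 35, 27 and 35 and folds of 11.3, 3.06 and 7.08. Its expected level was 2.20, 8.16 and 4.09 fragments. The neighbouring region from 56085044 to 56100261 joined 2 peaks of each list. The best by fold were different peaks, with summits up to 10682 bp apart. The other peaks had close summits, at 56094720, 56094746 and 56094737 in replicates 1, 2 and 3. In all 3 lists together, 5168 bp of this region were covered. The group from 69346783 to 69440929 held the region from 69352161 to 69367734, with folds of 9.14, 8.57 and 3.29 and best peaks of 8561, 9406 and 8591 bp. It also held peaks of 48281, 48549 and 48319 bp, from 69392381 to 69440929, the widest in replicates 1 and 3. Their starts agreed within 218 bp and their ends within 67 bp, while their summits lay up to 36942 bp apart and had 5, 8 and 10 fragments. Next to this group, the region from 69847476 to 69853571 had folds of 4.92, 7.86 and 3.66.

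**Figure D5:**
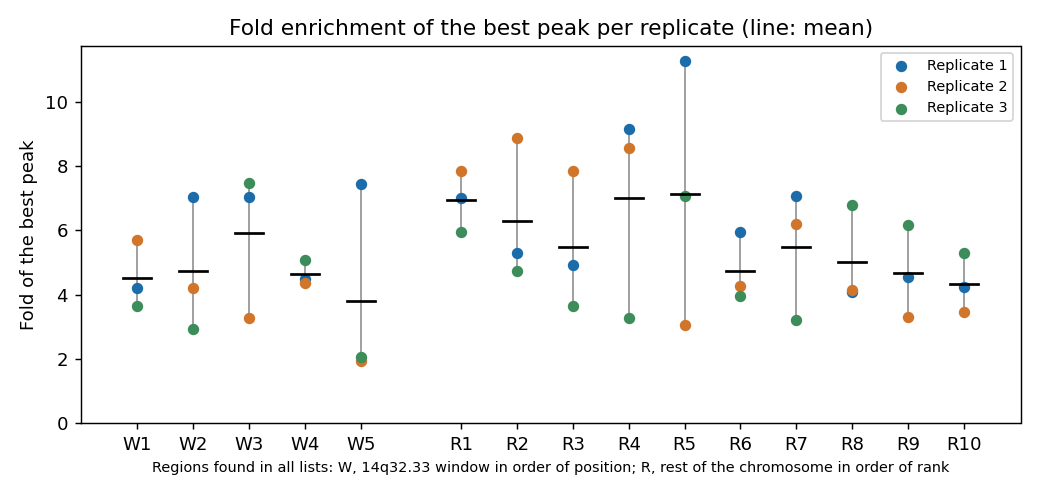
Fold enrichment of the best peak per replicate (points) and its mean (line) in the 5 regions of the 14q32.33 window found in all lists (W1 to W5, by position) and in the 10 named regions of the rest (R1 to R10, by rank). W4 and R1 have points close together at means of 4.64 and 6.93, while those of W5 and R5 are far apart.

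Some of the strongest peaks were found in a single list. In the window, the highest fold of replicate 2, 8.21 with 12 fragments, belonged to a peak from 105178882 to 105179961 that neither other list had. The third group had no region of all lists. Its widest peak, of 7759 bp from 105334874, was listed in replicate 1 alone with 5 fragments, and replicates 2 and 3 had overlapping peaks between 105344802 and 105347053. On the rest of the chromosome, the highest fold of any list, 11.5 with 24 fragments, was that of a peak of replicate 2 from 100705622 to 100706166, again in neither other list. The deepest summits of replicates 2 and 3, of 47 and 72 fragments, lay in peaks from 102548102 to 102548459 and from 102551184 to 102552028, which were neighbours without overlap. Their folds were 3.98 and 1.77 over expected levels of 11.1 and 40.3 fragments. A high fold or a deep summit in 1 list did not, in these cases, come with a listed peak at the same position in the others. These cases were picked as peaks of a single list, and other maxima recurred. The highest folds of replicate 1, 7.44 in the window and 11.3 on the rest, lay in regions of all 3 lists. So did the highest of replicate 3 on the rest, 8.67, while its highest in the window, 7.94, was shared with replicate 2.

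The agreement of edges and summits rests on few pairs in the window and was not tested. Over pairs of overlapping peaks between 2 lists, summits lay within 100 bp of each other in 4 of 6, 2 of 5 and 4 of 10 pairs in the window (replicates 1 and 2, 1 and 3, 2 and 3), or 48.9% on average. On the rest it was 13 of 39, 9 of 31 and 15 of 48, or 31.2%. Starts agreed within 100 bp in 1 of 6, 2 of 5 and 4 of 10 pairs in the window, and in 17 of 39, 15 of 31 and 18 of 48 on the rest. Ends did so in 1 of 6, 2 of 5 and 4 of 10, and in 14 of 39, 14 of 31 and 16 of 48. The window was thus lower for replicate 1 with either other and slightly higher between replicates 2 and 3. The peaks of the rest were also the wider ones. The bases covered in both lists of a pair made up 16.9%, 21.1% and 26.3% of all bases covered in either in the window, and 25.7%, 27.7% and 32.2% on the rest. Each pair shares a list with another pair, so these values are not independent.

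The window was also set beside the other windows of 1 Mb with at least 8 peaks in every list, which numbered 10 across the genome. By mean peak number it was second of the 11, with 13.7 against 14 in the first. Its mean of the median widths, 822 bp, was the lowest of the 11, the others lying between 1069 and 2921 bp. Its mean share of peaks overlapped in both other lists, 31.7%, ranked 7 of 11, in a range of 12.0% to 70.6% for the others, whose median was 45.2%. Its 5 regions in all lists equalled the highest number among them. The median pileup, 7.67 on average, lay within the 5.50 to 11.2 of the others. These windows were picked by their counts, and the ranks were not tested.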

How the data were processed

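The peak lists of 3 anti-RBM8A immunoprecipitates of AGS cells were analysed, 1 per replicate; the 3 inputs had no list in the files used. The submitters' processing notes name FastQC, HISAT2, SAMtools, GATK and MACS2, without versions or settings, and hg38. The sequence names in the lists are those of hg19, and positions were taken as hg19. The deposited fold enrichment is a ratio of pileup to expected level, and the deposited −log10 p and −log10 q come from the authors' caller. The deposited score is 10 times the −log10 q, cut to a whole number, and was not used. The authors' other deposited columns, of unit other, give starts, ends and summit offsets in bp.

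Read totals are not given, so library depth is unknown. The summit pileup was recovered as the whole number, up to 400, that gives the deposited fold and −log10 p within 0.0005 under a Poisson model; this succeeded for all 83, 95 and 98 peaks of chromosome 14. Overlap meant at least 1 bp. Named regions were all those of the window with a peak of each list, and the 10 of the rest with the highest mean percentile rank by fold. Members, window and rules were chosen with earlier results of these data known. Alternatives were a −log10 q of at least 5, peaks under 10 kb, another window start, 50% overlap, summits within 100 bp and each replicate left out. Scripts were tested on simulated data. Software was matplotlib 3.10.9, pyranges 0.1.4 (hg19 lengths), scipy 1.17.1, pandas 2.3.3 and numpy 2.4.6 under Python 3.11.15. The smallest pileup listed on the chromosome was 4 fragments.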

Additional observations from a re-analysis of the deposited data

How the results depend on the processing

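Where only peaks reaching a −log10 q of 5 were kept, the window's share of the chromosome's peaks was 27.6%, the median spacing of the rest exceeded that of the window by 6126 kb (main value 114 kb), the median width was lower by a difference of -1514 bp, the pileup difference was -1.33 fragments and that in recurrence -12.2 percentage points, and 0 regions of the window and 1 of the rest held a peak of each list; this filter left 8, 14 and 18 peaks on the chromosome. The 2 spacing values are means of unlike replicates. In replicates 1, 2 and 3 the difference was 14325.5, 1782 and 2272 kb with this filter, and 174, 160 and 8.265 kb without it. With the window moved by 250 kb, its share was 8.45%, the fold difference was 0.369 (-0.333 in replicate 3), the pileup difference 0.667 and the regions in all lists 3, as they were with at least 50% overlap of both peaks. A separation of groups at 100 kb, chosen after the data were seen, gave 2 groups. Leaving out each replicate gave shares of 14.001% to 15.8%, spacing differences of 84.0 to 167 kb, width differences of -1227 to -834 bp, fold differences of 0.435 to 0.747, pileup differences of 1.25 to 2.25 fragments and recurrence differences of -3.38 to 24.3 points, the highest without replicate 1. Regions in both remaining lists then numbered 4 to 10 in the window and 25 to 35 on the rest. Of the 29 values that do not leave out a replicate, 18 moved by less than 1 SD or, for counts, by less than 1.5 times. Why values moved was not tested. No paired analysis was possible because the inputs, which carry the same replicate numbers, had no list in the files used. Most summits rest on fewer than 10 fragments, which limits single peaks.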
